A study of Drosophila melanogaster with 4 samples.

Results

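Narrow H3K4me3 peaks lying close beside wide ones, here called satellites, made up 858 of the 7425 peaks in the deposited list, or 11.6%. The word describes their position only and does not refer to satellite DNA. They were chosen by the widths and positions of the peaks on the 6 chromosome arms 2L, 2R, 3L, 3R, 4 and X. A satellite was under 500 bp wide and had, on the same arm, a peak of 1000 bp or wider with fewer than 1000 bp between the facing edges. The arms held 6715 peaks, of which 1508 were narrow by this limit, 3961 were wide and 1246 were of 500 to 999 bp. Widths and gaps chose the members and are therefore given as a description. The score did not enter the rule, but it comes from the same peak call as the width.

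Histone H3 trimethylated at lysine 4 is placed on chromatin by enzymes of the Set1 and Trithorax family and is concentrated on the nucleosomes around the start sites of transcribed genes. In flies the mark usually lies downstream of the start site and tapers off into the gene body. A peak caller reports this graded signal as separate, scored intervals. The deposited list holds those intervals and no signal along the genome.

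The chromatin came from whole Drosophila melanogaster embryos of 8 to 16 h, cross-linked in 1.8% formaldehyde for 15 min, and the series has 2 libraries precipitated with a rabbit polyclonal H3K4me3 antibody and 2 of input DNA. Both groups were of the strain labelled Y cn bw sp, with the pigmentation markers y[1], bw[1], cn[1] and sp[1]. The other alleles listed, shared by both groups, were oc[R3.2], lab[R4.2] and CG33964[R4.2], then Rh6[1], GstD5[1], MstProx[1] and LysC[1], and Gr22d[1] with Gr22b[1]. Whole embryos mix all cell types, so a smaller number of marked cells and less mark per cell cannot be told apart. The libraries were represented by 1 list without a sample column, so no value below has a replicate error and no group was compared with another. The depth of the libraries is unknown, and the sources used here do not say how ChIP and input were combined. Intervals of shares are exact Clopper-Pearson 95% intervals, and intervals of medians are order-statistic 95% intervals. Both take peaks as independent units, cover counting error only and measure no biological replication. Positions are on FlyBase release 5, and no gene is named because the gene table at hand is of another release.

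At the limits used, narrow peaks were more often beside a wide peak than away from one. Of the 1508 narrow peaks, 56.9% (54.4 to 59.4) were satellites. A further 311, or 20.6%, lay 1000 to 4999 bp from the nearest wide peak, and 339, or 22.5%, lay 5000 bp or more away. The majority depended on the limits. With gaps under 500 bp, 657 narrow peaks were satellites and 851 were not. With wide peaks of 1500 bp or more these numbers were 664 and 844. Without the lowest 25% of peaks by score they were 58 and 94. Satellites stayed the larger group with narrow peaks under 400 bp, with gaps under 2000 bp and where the wide peak had to be the next peak. Closeness to a wide peak was also common among broader peaks. A wide peak lay under 1000 bp away for 46.1% of the peaks of 500 to 999 bp (43.4 to 49.0), and for 52.0% of the wide peaks themselves (50.4 to 53.5). The share among narrow peaks was thus the highest of the 3 width groups at these limits. Its interval did not overlap that of the peaks of 500 to 999 bp. Closeness is mutual among wide peaks, so both peaks of a pair count. Their interval is therefore too narrow to be set against that of the narrow peaks. More than 4 in 10 peaks of every width had a wide neighbour.

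Satellites were small and low on the score scale. Their median width was 303.5 bp, with quartiles of 238 and 387 bp, and 36 of them had the smallest width in the set, 201 bp. Their scores ran from 5.67 to 75.2 with a median of 10.7 (10.5 to 10.9) and quartiles of 9.07 and 12.9. The score of 5.67 was the lowest of the whole list. Only 42 satellites scored above 20 and only 7 above 40. The median satellite stood at the 11.2th percentile of score among all arm peaks, and the highest at the 44.4th. Together the satellites covered 271 kb, or 2.37% of the length covered by all arm peaks.

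Almost all satellites had a wide peak on 1 side only. This was so for 783 of them, while 75, or 8.74% (6.94 to 10.8), lay between wide peaks in reach on both sides. Among the former, the wide peak was at the lower coordinate for 389 and at the higher coordinate for 394, so neither direction along the arms was favoured in number. Strand was not considered, since no start sites could be placed. On their outer side, away from the wide peak, the satellites with 1 wide peak had a median of 5580 bp to the next peak of any width (4864 to 6393). No other peak lay within 1000 bp outward for 603 of them, or 77.0%, and none within 5000 bp for 414, or 52.9%. By definition these satellites had no wide peak within 1000 bp on the outer side. The outer distances and shares are therefore set in part by the rule.

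The wide peaks with the most satellites show the arrangements that occurred. The highest number was 3, reached by 4 wide peaks. On 2L the wide peak at 2L:19524646-19526453, with a score of 213.97, had 1 satellite at its lower edge, 68 bp away with a score of 9.52, and 2 at its higher edge. These were 316 and 771 bp away and scored 13.86 and 11.41, and a second wide peak followed them. At 2R:19829789-19833636, where the wide peak scored 398.95, 1 satellite lay 207 bp below and 2 lay 294 and 811 bp above. The lower satellite was nearer to another wide peak, 90 bp away with a score of 68.63. A wide peak of 5144 bp at 2R:11877297-11882440 had 2 satellites below it, at 177 and 771 bp, and 1 above it, at 645 bp.

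The fourth wide peak with 3 satellites, at 2R:13423771-13426132, had all of them on its higher side, 91, 639 and 976 bp from the edge, with scores of 12.25, 7.90 and 13.87. The other 4 plotted peaks had 2 satellites each, the most on their arms. On 3L 26 wide peaks had 2, on 3R 27 and on X 9, and the highest-scoring of each arm is shown. On 3R the wide peak at 3R:5167455-5169969, which scored 531.96, had 1 on each side at an equal gap of 220 bp, but their scores were 38.24 and 8.73. On chromosome 4 the wide peak at 4:152719-154055 had satellites at 677 and 92 bp, which scored 11.44 and 10.11. On 3L (3L:17415970-17420326) and X (X:9042136-9045947) both satellites were on the lower side. Both satellites on X also had another wide peak in reach, which for 1 of them was nearer, at 81 bp.

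**Figure D1:**
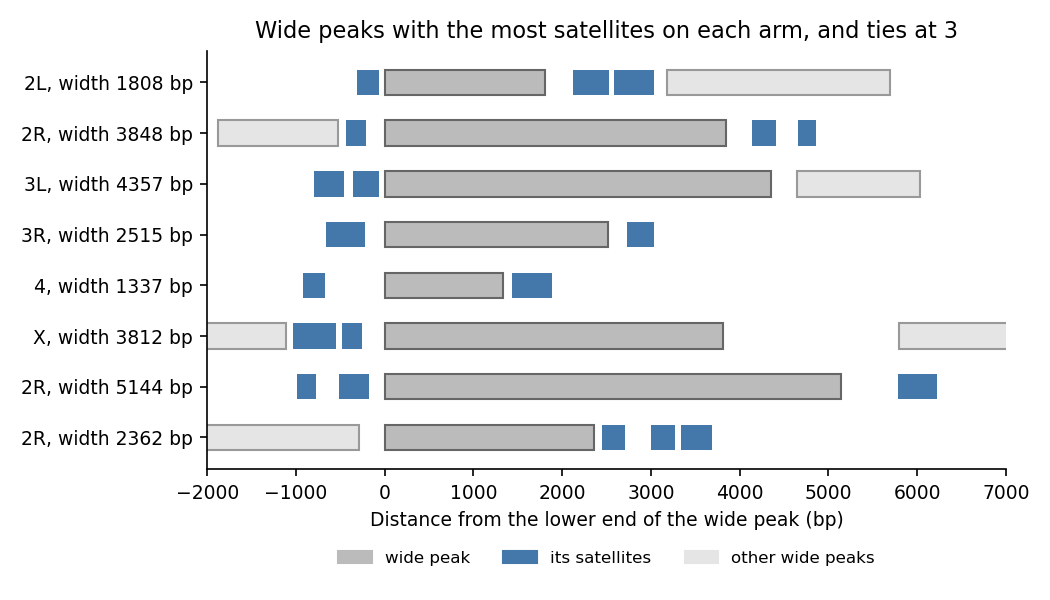
Positions of satellites around 1 wide peak with the most satellites on each arm (on 3L, 3R and X the highest-scoring of 26, 27 and 9 with 2 satellites) and around 2 further wide peaks of 2R that also had 3; the x axis is the distance in bp from the lower end of the wide peak. Grey bars are the wide peaks, blue bars their satellites and pale bars the nearest other wide peaks; the satellites form short rows on 1 side or stand on both sides.

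A wide peak with a satellite usually had just 1. Of the 3961 wide peaks, 822 had a satellite, or 20.8% (19.5 to 22.0). Of these, 715 had 1, 103 had 2 and 4 had 3, which gives 1.14 satellites per flanked wide peak and 933 pairs of a satellite and a wide peak. The pairs were divided evenly, with 469 satellites on the lower and 464 on the higher side. Satellites stood on both sides of 33 wide peaks, or 4.01% of the flanked ones, while 392 were flanked on the lower side alone and 397 on the higher side alone. A satellite was present on the higher side of 7.76% of the wide peaks that had one on the lower side (5.40 to 10.7), and of 11.2% of those that had none there (10.2 to 12.3). The ends of these intervals overlapped slightly.

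Short rows of satellites occurred. At least 2 satellites stood on the same side of 77 wide peaks. The next peak was a satellite under 1000 bp away for 153 satellites, or 17.8%. These formed 70 rows of 2, 3 rows of 3 and 1 row of 4. The row of 4, named after its values were seen, filled the 2548 bp between a wide peak at 2R:9871059-9872575 and another at 2R:9875124-9878298. Its members scored 14.46, 9.32, 10.32 and 19.77 in order along the arm, so the outer ones, 208 and 159 bp from their wide peaks, were higher than the inner ones. In all, 778 satellites, or 90.7%, were the peak next to a wide peak in reach. For the other 80, only satellites lay between in 69 cases and a peak of 500 to 999 bp lay between in 11.

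Gaps to the wide peak were short within the window that the rule allows. The median gap to the nearest wide peak was 267.5 bp (246 to 287), with quartiles of 142 and 475 bp. Gaps under 100 bp were found for 134 satellites, or 15.6%, under 250 bp for 47.1%, under 500 bp for 76.6% and under 750 bp for 88.8%. In bins of 50 bp the number fell from 134 in the first bin, from 50 to 99 bp, to 78 between 250 and 299 bp and to 28 between 450 and 499 bp. From 500 bp to the limit each bin held between 14 and 29 satellites. No second rise at a fixed distance stood out from this decline. The smallest gap was 50 bp, which was also the smallest between any peaks of the arms, so shorter breaks could not be seen.

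**Figure D2:**
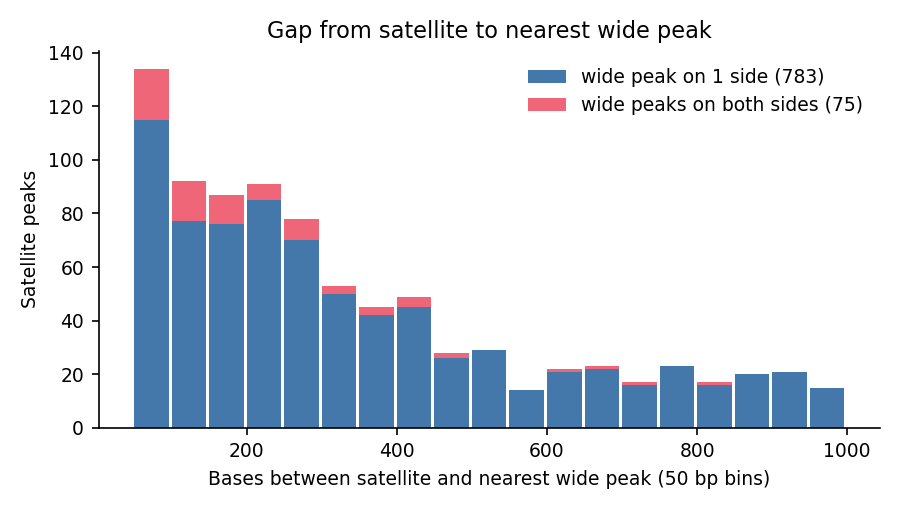
Number of satellites (y axis) by bases between the satellite and its nearest wide peak (x axis, bins of 50 bp), with 783 satellites beside 1 wide peak in blue and 75 between wide peaks in red. The first bin holds 134 satellites and every bin from 500 bp on holds 29 or fewer.

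The short gaps were shared by peaks of other widths at the same place. Each wide peak has a lower and a higher edge, which makes 7922 edges. The next peak within 1000 bp was narrow at 841 edges, or 10.6%, of 500 to 999 bp at 601, or 7.59%, and wide at 2354, or 29.7%. At the remaining 4126 edges, or 52.1%, no peak was in reach. The median gap was 251 bp before a narrow peak (236 to 269), 274 bp before one of 500 to 999 bp (241 to 301) and 262 bp before a wide one (248 to 281). The 2354 edges before a wide peak are 1177 gaps seen from either end, and this interval counts each gap once. These intervals overlapped. Gaps under 100 bp made up 15.9% of the gaps before narrow peaks, 13.8% of those before peaks of 500 to 999 bp and 9.60% of those before wide peaks.

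Satellites between neighbouring wide peaks appeared once the wide peaks were well apart. Of 320 pairs of neighbouring wide peaks that were 301 to 499 bp apart, 0 had a satellite between them, with an exact 95% upper limit of 1.15%. The smallest satellite is 201 bp wide and the smallest gap 50 bp, so the narrowest of these spaces could hold only a satellite of the smallest size. A satellite of the median width, 303.5 bp, could not fit in the narrower of them. The 0 is therefore set in part by the room available. Wide peaks in reach on both sides of a satellite were at least 528 bp apart. Of 241 pairs 500 to 999 bp apart 35 had a satellite, or 14.5% (10.3 to 19.6). The share was 23.4% at 1000 to 1999 bp (17.9 to 29.8) and 33.2% at 2000 to 4999 bp (28.6 to 38.1). It was 30.2% at 5000 to 9999 bp (26.0 to 34.6) and 21.7% at 10000 bp or more (19.7 to 23.7). Counted per edge, 14.5% of edges at 500 to 999 bp had a satellite and 20.6% at 1000 to 1999 bp. It was 19.3% at 2000 to 4999 bp and 17.4% at 5000 to 9999 bp. At 10000 bp or more this share was 11.6%. A satellite within 1000 bp of both edges counts at each of them, so edges are not separate units and these shares have no interval.

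For the 75 satellites between wide peaks in reach on both sides, both gaps can be given. Their smaller gap had a median of 160 bp (136 to 215) and their larger gap 463 bp (373 to 596), and the wide peaks lay 1033 bp apart at the median. With 2 gaps to choose from, a smaller nearest gap than the 278 bp of satellites beside 1 wide peak follows in part from taking the minimum. Their median width of 336 bp (316 to 372) lay above the 300 bp (289 to 309) of satellites beside 1 wide peak. Their median score of 11.3 (10.5 to 12.4) had an interval that overlapped that of the others, 10.65 (10.5 to 10.9).

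The tightest of these stood almost against both neighbours. At 3L:2777333-2777732 a satellite of 400 bp with a score of 11.5 lay 52 bp from a wide peak of 3064 bp and 123 bp from one of 1055 bp, which itself scored only 21.33. At X:15627762-15628088 the gaps were 123 and 116 bp and the satellite scored 29.75, well above most. At 3R:27440385-27440672 a satellite with a score of 10.51 lay 92 and 153 bp from wide peaks of 6897 and 4732 bp, which scored 416.05 and 232.95. The satellites at 2L:11008322-11008591 and 3L:3322013-3322434 scored 11.5 and 19.57, with gaps of 162 and 100 bp and of 60 and 205 bp. In all 5 cases a distance of at most 687 bp separated the edges of the wide peaks.

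The wide partner was mostly a strong peak of common size. Over the 858 satellites the nearest wide peak had a median width of 2154 bp (2048 to 2247), with quartiles of 1524 and 3169 bp and a maximum of 10863 bp. Its median score was 230.82 (220.1 to 244.4), with quartiles of 145.4 and 297.6. A total of 762 different wide peaks served as the nearest partner. The median satellite had 14.3% of the width of its partner. The 822 flanked wide peaks had a median width of 2120 bp (2015 to 2220) against 1997 bp (1951 to 2049) for the 3139 without a satellite, and a median score of 226.1 (214.5 to 238.4) against 214.9 (210.2 to 220.9). The intervals overlapped for both measures, and both medians were slightly higher for flanked peaks.

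The satellite scored below its nearest wide peak in 854 of 858 cases. The satellite was the higher in the other 4, which are named here after their values were seen. They lay at 2L:2742743-2743187, 2L:8522422-8522855, 2L:18973703-18974136 and 3L:5767041-5767329, with scores of 21.37, 22.91, 21.59 and 16.17. Their partners scored 18.09, 17.62, 14.6 and 14.58, and none of these wide peaks exceeded 1428 bp. All of these partners were among the low-scoring wide peaks, whose lower quartile was 129.97. Of the 4 satellites, 3 also scored above 19.98, the 95th percentile of satellite scores. A narrow peak scoring below a wide one is not particular to these pairs. The narrow peaks that were not satellites had a 95th percentile of 29.97, and all wide peaks had a 5th percentile of 41.8.

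Across satellites the score hardly followed that of the partner. Spearman's rho between the 2 scores was 0.06 over 858 satellites, and between satellite score and partner width it was 0.02. These are descriptions across peaks of 1 list, which share libraries, depth and peak call, and some satellites share a partner. The median satellite score was 10.6 beside partners that scored under 100, 10.45 at 100 to 200, 11.1 at 200 to 300 and 10.65 at 300 or more. Satellite score rose with the satellite's own width, with a rho of 0.46. Its relation to the gap was weak, with a rho of -0.12. Among the gap classes the median score was highest at 100 to 199 bp, 11.4 (10.9 to 11.8). It was lowest at 750 bp or more, 9.91 (9.07 to 10.4). At the shortest gaps, 50 to 99 bp, it was 10.69 (10.49 to 11.22). The intervals of the highest and lowest classes did not overlap, and the median width was also smaller in the lowest, 275 against 310 bp.

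**Figure D3:**
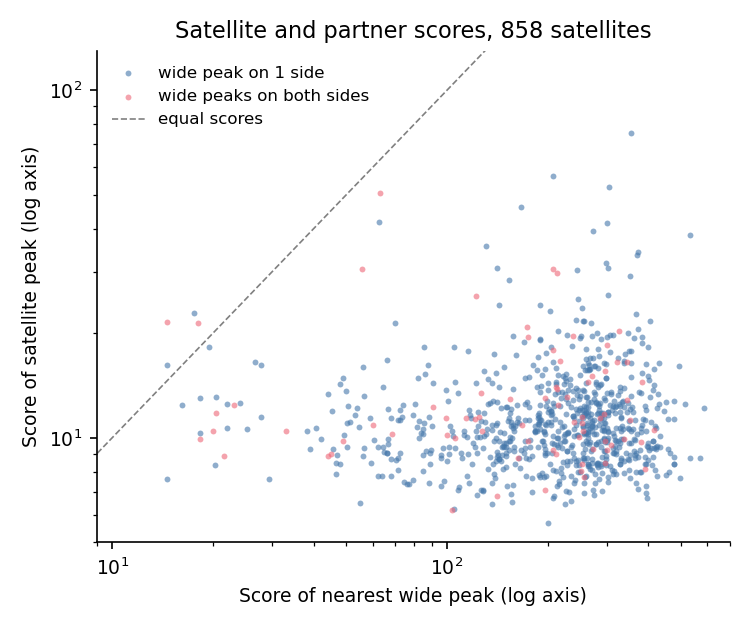
Score of each of the 858 satellites (y axis, log) against the score of its nearest wide peak (x axis, log), with satellites beside 1 wide peak in blue and between wide peaks in red. The cloud is flat, with satellites near a score of 10 beside partners of any score, and 4 points lie above the dashed line of equal scores.

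The highest-scoring satellites stood beside wide peaks of quite different scores. The first, at 3L:17836194-17836671, was 478 bp wide, scored 75.2 and lay 240 bp from a wide peak of 2785 bp that scored 355.78. Next came 3R:10336808-10337259, with a score of 56.57 and a gap of 214 bp to a wide peak that scored 207.26. The satellite at 2R:15283817-15284261 scored 52.76 and lay 235 bp from a peak of only 1135 bp that scored 304.93. At 2R:11563787-11564199 a satellite of 50.57 lay between wide peaks of 63.33 and 185.46, so its score was close to that of the lower neighbour. The fifth, at 3L:19056299-19056787, scored 46.16. All 5 were over 400 bp wide.

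The 3 lowest-scoring satellites were all within 90 bp of a wide peak, although over all satellites the lowest median score was at the longest gaps. The one at 2R:11936855-11937093, with the lowest score of the list, 5.67, was 239 bp wide and lay 79 bp from a wide peak that scored 200.96. At X:12795867-12796069 a satellite of 203 bp scored 6.20 and lay 53 bp from one wide peak and 674 bp from another. At X:8294926-8295147 the score was 6.23 and the gap 86 bp. Of the 100 lowest-scoring peaks of the arms 98 were narrow. Satellites were 61 of these 98, or 62.2% (51.9 to 71.8), an interval that includes their 56.9% of all narrow peaks.

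The share of wide peaks with a satellite rose slightly with their width up to 5999 bp. It was 18.3% at 1000 to 1499 bp (16.1 to 20.7), 20.7% at 1500 to 1999 bp (18.0 to 23.6) and 21.8% at 2000 to 2999 bp (19.3 to 24.4). It was 23.0% at 3000 to 3999 bp (19.2 to 27.2), 23.2% at 4000 to 5999 bp (19.0 to 27.9) and 19.3% at 6000 bp or more (13.9 to 25.9). All intervals of the 6 width classes overlapped, and a trend was not tested. By score the share lay between 17.7% at 50 to 100 and 22.5% at 200 to 300, and the intervals of the 6 score classes overlapped as well. Of the 100 highest-scoring arm peaks, 18 had a satellite.

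The broadest peaks gave too few cases for a firm share. Of the 19 wide peaks of 10 kb or more 1 had a satellite, or 5.26%, with an interval of 0.133 to 26.0 that includes the share of all wide peaks. That peak, at 3R:17182630-17193492, was 10863 bp wide with a score of 395.23, and its satellite lay 798 bp away with a score of 6.70. At 3L:2368677-2377597 a wide peak of 8921 bp had a satellite 141 bp from its higher edge that scored 13.36. The next widest flanked peaks, at 2L:3021475-3030156, 2R:4998224-5006890 and 3R:25628799-25637346, each had 1 satellite, at gaps of 168, 188 and 223 bp, with scores between 9.19 and 11.42. The satellites of these very broad peaks were thus as low as the rest.

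**Figure D4:**
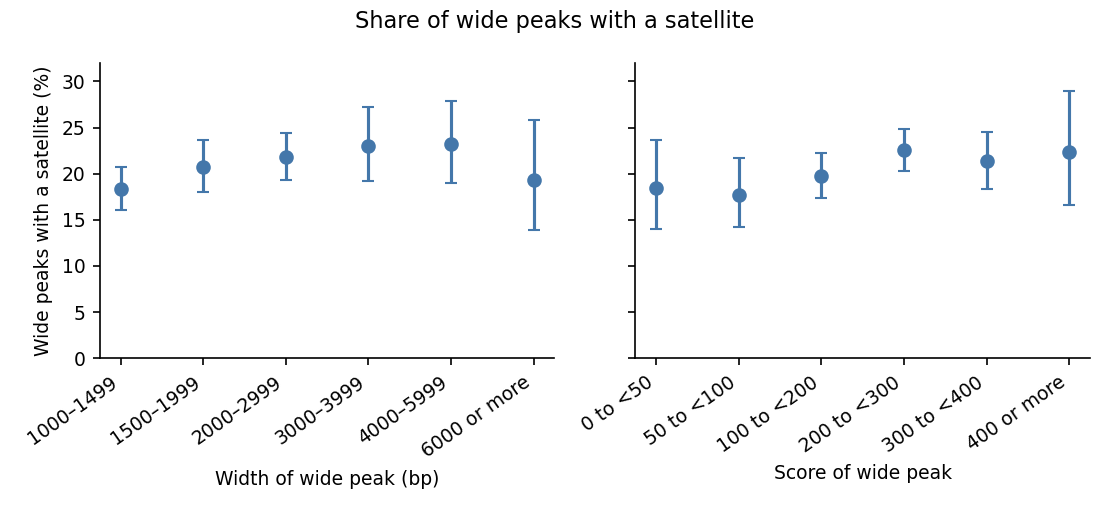
Share of wide peaks with at least 1 satellite (y axis, percent) by width class in bp (left) and by score class (right) of the wide peak; points are shares and bars exact 95% intervals. The shares lie between 17.7% and 23.2%, with overlapping intervals.

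Satellites scored lower than narrow peaks far from any wide peak. The 339 narrow peaks 5000 bp or more away had a median score of 12.8 (12.0 to 14.0), against 10.7 (10.5 to 10.9) for satellites. They were also wider, with a median of 330 bp (317 to 348) against 303.5 bp (295 to 312). In each of 6 width classes of 50 bp the satellite median was the lower, with a difference between -4.37 and -0.55. At 350 to 399 bp it was 11.9 (10.8 to 12.5) against 15.9 (14.4 to 18.1), and at 200 to 249 bp it was 9.39 (9.19 to 9.64) against 9.94 (9.41 to 10.4). The intervals overlapped in 5 of the 6 classes, all but the class of 350 to 399 bp.

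Narrow peaks at middle distance had a median score near that of satellites. The 311 peaks 1000 to 4999 bp from a wide peak had a median score of 10.5 (10.1 to 10.9) and a median width of 301 bp (287 to 319), with intervals that overlapped those of satellites. Satellites were the lower in 2 of the 6 width classes and the higher in 4, with differences from -5.11 at 400 to 449 bp to 1.41 at 450 to 499 bp. The intervals overlapped in all 6. Over all 650 narrow peaks that were not satellites the median score was 11.6 (11.2 to 12.0), a difference of -0.895 for satellites. The outer ends of the 2 median intervals gave this difference a range of -1.49 to -0.25. Such a range is not a 95% interval of the difference and is wider than one. The difference was -0.25 with gaps under 500 bp, and its range reached or included 0 in 5 of 6 alternative settings. Satellites were a smaller share of the high-scoring narrow peaks. In the upper quartile of narrow peaks by score, from 14.01, 43.8% were satellites (38.7 to 48.9), against 60.6 to 62.4% in the 3 lower quartiles, where the lowest interval began at 55.5%. Above a score of 20 satellites were 42 of 128 narrow peaks, or 32.8% (24.8 to 41.7).

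**Figure D5:**
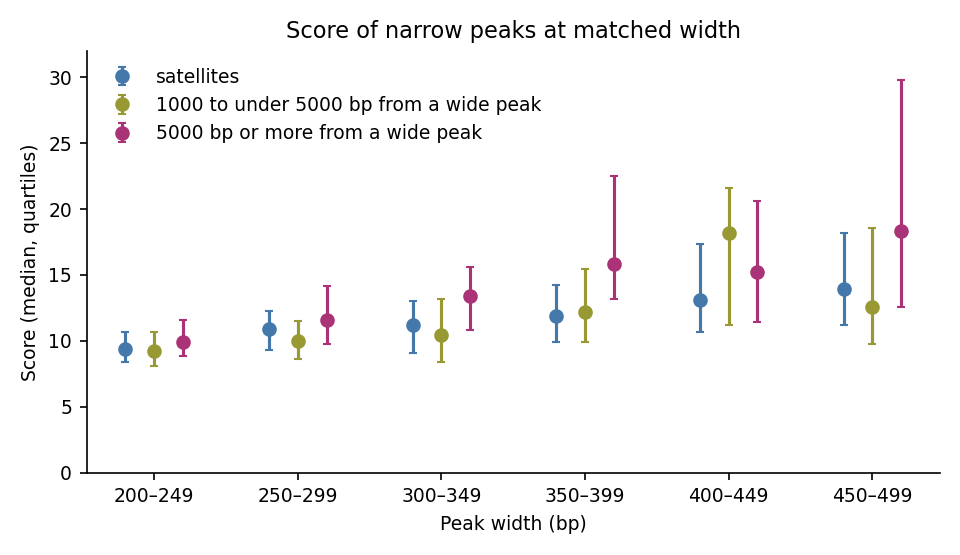
Median score (y axis, bars from lower to upper quartile) of narrow peaks in width classes of 50 bp (x axis), for satellites in blue, narrow peaks 1000 to 4999 bp from a wide peak in olive and those 5000 bp or more away in purple. Satellites lie below the most distant group in each of the 6 classes.

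Satellites occurred on all 6 arms. X had the lowest share of wide peaks with a satellite and of narrow peaks that were satellites. Its intervals overlapped those of the other arms. They numbered 151 on 2L, 182 on 2R, 180 on 3L, 213 on 3R, 12 on chromosome 4 and 120 on X. The share of wide peaks with a satellite was between 20.8% on 2L and 21.9% on 3L among the large autosomal arms and was 17.8% on X (15.1 to 20.9). The X interval overlapped each of theirs. Among narrow peaks the satellites made up 49.4% on X (42.9 to 55.8) and 56.8 to 60.7% on the large autosomal arms, again with overlapping intervals. The share of satellites flanked on both sides was instead highest on X, 12.5% (7.17 to 19.8). It was 6.10 to 10.6% on the large autosomal arms, with overlapping intervals, and 0 of 12 on chromosome 4. The median satellite score was between 10.46 and 10.87 on the 5 large arms. On chromosome 4 it was 13.0, with an interval of 9.07 to 16.5 from only 12 satellites. Median gaps ran from 233 bp on 3R (211 to 269) to 326 bp on 2L (272 to 384), and these 2 intervals did not overlap.

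Along the arms satellites followed the wide peaks. In 116 complete 1 Mb bins of the 5 large arms the number of satellites had a median of 7 and a maximum of 20, and 2 bins had none. Spearman's rho between the numbers of satellites and of wide peaks per bin was 0.79, a description across bins that rests in part on the rule itself. In the 98 bins with 20 or more wide peaks the median was 21.4 satellites per 100 wide peaks. The highest value, 46.5, was on 3L from 21 to 22 Mb, with 20 satellites and 43 wide peaks, and the lowest, 0, on 3R from 15 to 16 Mb, with 21 wide peaks. Both bins were picked after their values were seen.

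At each limit of the rule, values can be given just inside and just outside. The widest satellites were 2 of 499 bp, at 2L:1152769-1153267 with a score of 19.37 and at X:9497345-9497843 with 10.61. The narrowest peak past the limit, at 3L:358090-358589, had 500 bp and a score of 19.28. The satellite with the longest gap, 996 bp, at X:6423669-6423984, scored 9.66, and the first narrow peak outside, at 1000 bp (2L:13008076-13008347), scored 11.53. The narrowest partner, at X:6874661-6875667, was 1007 bp wide with a score of 56.57. A peak of 998 bp at 4:691650-692647, with a score of 167.07, was too narrow to make its narrow neighbour a member.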

How the data were processed

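Measurements came from the 1 peak list of the series, which names no library. How the 2 ChIP and 2 input libraries entered it is not stated. MACS2, BWA and the CASAVA releases 1.7.0.3 and 1.7.0.2 are named in the submitters' processing notes, with BDGP5 as the build and no settings. Per the file headers, positions are 1-based on FlyBase release 5. The deposited score is the authors' value per peak, its scale is not stated, and it was compared only within the list. The sizes of score differences depend on that scale, while orders do not.

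Width was end minus start plus 1, and a gap was the number of bases between facing edges. Where 2 wide peaks were in reach, the nearer was the partner. Python 3.11.15 with numpy 2.4.6, scipy 1.17.1, pandas 2.3.3 and matplotlib 3.10.9 was used, and the search for neighbours was tested on simulated data. No significance test was made, since the list has no replicates. Peaks were named by rule, unless stated otherwise: the most satellites per arm (ties by higher score), the 5 highest and 3 lowest satellite scores, the 5 tightest between wide peaks, the 5 widest flanked peaks and those at the limits. The members, groups and rules were chosen with earlier results of these data known. Alternatives were other limits of width and gap, a stricter list, and only wide peaks that were the next peak.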

Additional observations from a re-analysis of the deposited data

How the results depend on the processing

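No paired analysis was possible because the peaks are not separated by library, and so no replicate could be left out. Of 30 alternative values 16 stayed within 1.5 times the count or within the interval of the value given, and 14 moved past it. For the score difference that interval was the wider range described above. Only the score difference could change sign, and it stayed negative in all settings. By construction, other limits take in other peaks. With narrow peaks under 400 bp, 16.5% of wide peaks had a satellite. With gaps under 500 bp the share flanked on both sides was 6.09%, the share of wide peaks with a satellite 17.0% and the median gap 206 bp. With gaps under 2000 bp these were 15.9%, 24.7% and 337.5 bp, and satellites scored lower than other narrow peaks by a difference in medians of -1.80. With wide peaks that were the next peak only, the median gap was 239.5 bp. The stricter list, without the lowest 25% of peaks by score, held 58 satellites in place of 858, because 93.1% of satellites scored 19.04 or less. Of the other narrow peaks 85.7% did so too, and the stricter list held 94 of them in place of 650. In that list 15.5% of satellites were flanked on both sides and 1.71% of wide peaks had a satellite. The median gap there was 214 bp and the score difference -3.26. The numbers of satellites and of other narrow peaks thus both rest on the authors' threshold. The difference in median score from other narrow peaks was between -0.25 and -3.26 in all settings. Its range from the ends of the median intervals reached 0 with narrow peaks under 400 bp. That range included 0 with wide peaks of 1500 bp or more, gaps under 500 bp, the next peak only and the stricter list. Library depth and mappability are unknown.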
